A study of Homo sapiens with 5 samples.

Results

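Nuclear pore and nuclear transport genes were taken from a table of ribosome footprint counts by their symbols. Names beginning with NUP and a digit, KPNA, KPNB, IPO and a digit, XPO1 to XPO7 or TNPO1 to TNPO3 were kept, together with 15 named genes of the pore and of the Ran cycle (RAN, RANBP1, RANBP2, RANBP3, RANGAP1, RCC1, TPR, CSE1L, NXF1, NXT1, NDC1, POM121, RAE1, SEH1L and AAAS). The rule took 61 of the 17297 genes in the table and used no measured value. Of these, 59 had enough counts to be tested. KPNA7, an importin alpha, had 2, 1 and 1 counts in the MUT libraries and 0 and 0 in the WT libraries, where a count of 0 allows up to 1.5 and 0.981 CPM (counts scaled to library size). NUP210L, a paralog of the membrane nucleoporin NUP210, had 2, 3 and 5 counts in MUT and 0 and 2 in WT.

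Nuclear pores are large rings of nucleoporins set in the nuclear envelope. Outer and inner rings form the scaffold, a central channel is filled with flexible proteins rich in phenylalanine-glycine (FG) repeats, and filaments or a basket extend on the cytoplasmic and nuclear sides. Importins and exportins carry cargo through the channel. The small GTPase Ran sets direction: Ran-GTP, made on chromatin by RCC1, releases cargo from importins and loads it onto exportins, and RANGAP1 ends the cycle at the cytoplasmic side. Ribosome assembly depends on this traffic, since ribosomal proteins enter the nucleus on importins and new subunits leave it through the pore.

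Ribosome profiling counts footprints, the mRNA fragments left under ribosomes after nuclease digestion, and here they came from the monosome fraction of a sucrose gradient. The cells were HCT116, a human colorectal carcinoma line. The MUT group held 3 libraries from cells whose genotype is given as eIF6-N106S, made homozygous by CRISPR/Cas9 editing and kept as clones, and the WT group held 2 libraries of cells labelled Wt. eIF6 binds the large ribosomal subunit, acts in its assembly and stops it from joining the small subunit. By its title, the series concerns ribosomal subunits held as inactive 80S, mitotic exit and cancer progression when eIF6 is targeted. Which clone gave each MUT library, and whether each library had its own culture, is not stated. The p-values therefore measure the spread among these 5 libraries alone, and that spread may be technical. RNA-seq was not analysed here, and changes in mRNA and in ribosomes per mRNA cannot be told apart.

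Library totals were 3076137 to 3821176 counts in MUT and 2095217 and 3128144 in WT. Libraries were scaled to each other, so every rise or fall is relative to the other genes, and the counts support comparisons of a gene between libraries but not of levels between genes. EIF6 had 149, 169 and 154 CPM in MUT and 184 and 171 CPM in WT (log2 fold change -0.17, edgeR adjusted p 0.215), and a change of 1 residue need not alter this count. Of 9 colorectal epithelium markers in the table, CDX1 and VIL1 were near 0, and the summed level was 1162 to 1474 CPM in MUT and 1103 and 1206 CPM in WT. Of 7 of these markers tested, 2 were higher in MUT and 3 lower by the same test, 71.4% called against 22.9% of all genes tested. KRT8 and KRT19 rose (log2 fold change 0.37 and 0.29), while EPCAM, CDH1 and CLDN7 fell (-0.50, -0.90 and -0.57). The part of these markers in the results was not tested. Markers of immune cells (3 in the table) summed to at most 1.32 CPM, those of endothelium (4) to at most 5.49 CPM and those of fibroblasts (5) to at most 9.22 CPM in any library.

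Genes of nuclear transport changed in both directions, and most did not pass the test. Of the 59 genes tested, 10 rose in MUT, 6 fell and 43 did not pass at an adjusted p of 0.05. The test was edgeR's quasi-likelihood test, adjusted over all 11991 genes tested. An unadjusted p under 0.05 was found for 28 of the 59 and for 4295 of the 11991. Over all genes tested 10.0% rose and 12.9% fell, 22.9% in all, against 16.9% and 10.2% of the nuclear transport genes, 27.1% in all. The share called was thus close to that of all genes. The median log2 fold change was 0.03 over the 59 genes and 0.00 over all genes tested, and single genes ran from -0.63 to 0.58. All MUT libraries lay above both WT libraries for 21 genes and below both for 14, 59.3% of the 59, where 50.7% of all genes tested had groups that did not overlap. Among all genes, the number that rose against the number that fell was 1203 to 1544, but 1558 to 1209 with upper-quartile scaling and 1756 to 1040 with library size only. The nuclear transport genes gave 12 rises and 6 falls with upper-quartile scaling and 15 and 6 with library size only.

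**Figure D1:**
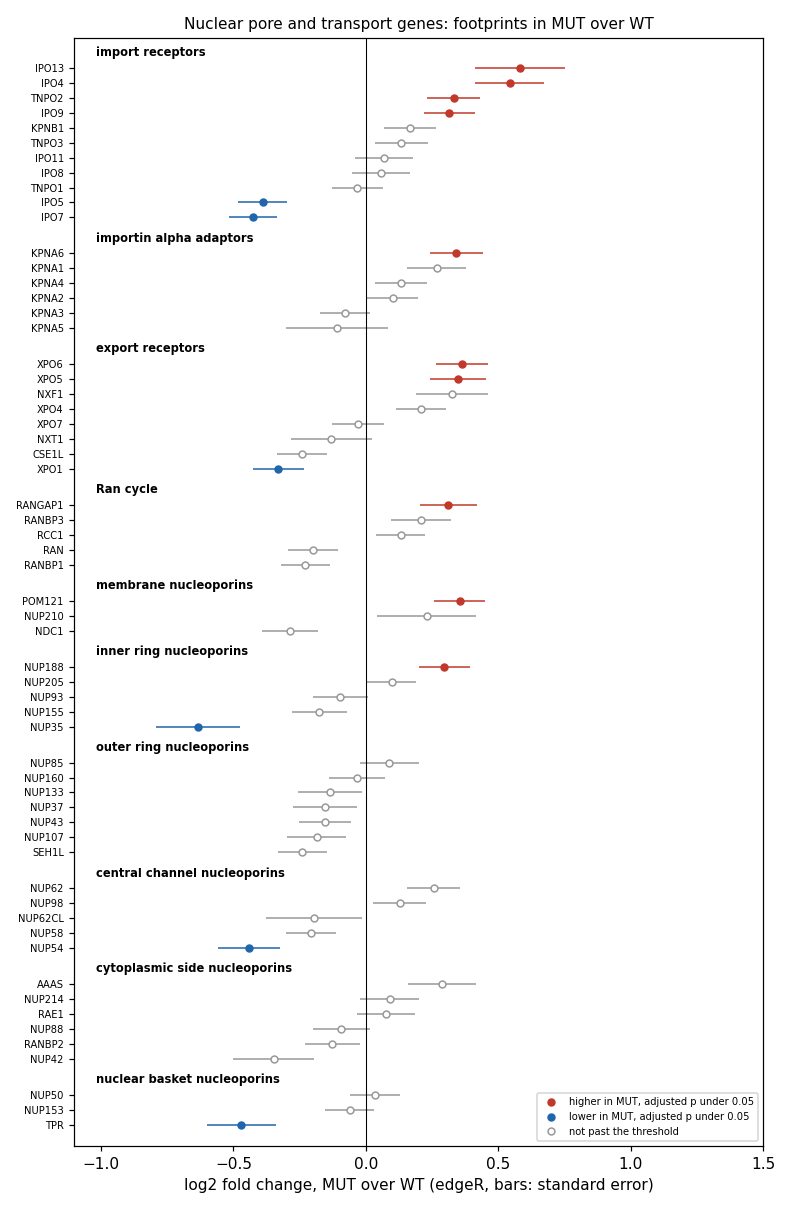
Log2 fold change of footprints, MUT over WT, for each of the 59 genes tested, grouped by role, with bars for the standard error. Filled points passed an adjusted p of 0.05 (10 higher and 6 lower), and the import receptors hold both IPO13 at 0.58 and IPO7 at -0.43.

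Importins of the beta family bind cargo or an adaptor in the cytoplasm and release it to Ran-GTP in the nucleus. Of 11 import receptors 4 rose (36.4%), 2 fell (18.2%) and 5 did not pass. Among all genes tested 10.0% rose and 12.9% fell. IPO7 and IPO5 were the receptors that fell. IPO7 had 319, 345 and 336 CPM in the MUT libraries and 452 and 445 CPM in the WT libraries. IPO5 had 484, 483 and 479.6 CPM in MUT and 651 and 613 CPM in WT. Both genes had every MUT library well below every WT library. IPO7 was 1.34-fold lower (log2 fold change -0.43, SE 0.0914, edgeR adjusted p 0.00174) and IPO5 1.31-fold lower (-0.39, SE 0.0925, adjusted p 0.00386). Each passed in all 15 alternatives. IPO7 spans chromosome 11, 9384652 to 9448127, and IPO5 chromosome 13, 97953675 to 98024296 (GRCh38.p14 gene bounds).

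The import receptors that rose were IPO4, IPO9, IPO13 and TNPO2. IPO4, a carrier of histones H3 and H4 that spans chromosome 14, 24180219 to 24188816, had 68.7, 65.3 and 65.9 CPM in MUT and 43.4 and 47.4 CPM in WT. It was 1.46-fold higher (log2 fold change 0.54, SE 0.130, edgeR adjusted p 0.00413) and passed in all 15 alternatives. IPO9, a carrier of histones H2A and H2B, had 201, 231 and 222 CPM in MUT and 170.3 and 180.2 CPM in WT. IPO13, which moves some cargoes in and others out, had the largest fold change of the rises, with 41.4, 37.7 and 35.7 CPM in MUT and 28.0 and 23.5 CPM in WT. TNPO2, the paralog of the transportin TNPO1, had 130.1, 130.1 and 130.3 CPM in MUT and 103 and 104 CPM in WT. For these 3 genes, too, no MUT library overlapped a WT library. IPO9 was 1.24-fold higher (edgeR adjusted p 0.0212), IPO13 1.5-fold (0.0151) and TNPO2 1.26-fold (0.0187). TNPO1 itself had a log2 fold change of -0.03 (95% interval -0.23 to 0.16) and did not pass.

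Without WT replicate 1 the adjusted p was 0.12 for IPO9 and 0.0837 for TNPO2, and without WT replicate 2 it was 0.0669 and 0.0989. Those of IPO13 were 0.2 without WT replicate 2 and 0.0677 without MUT replicate 1. TNPO2 had 0.0602 without MUT replicate 1, and IPO9 had 0.0726 without MUT replicate 2. DESeq2 gave 0.0502 for IPO9, 0.0702 for IPO13 and 0.0715 for TNPO2. KPNB1, the importin beta that works with importin alpha, had 579, 616 and 572 CPM in MUT and 485 and 561 CPM in WT. The MUT libraries were all higher, but its log2 fold change of 0.17 (95% interval -0.03 to 0.37) did not pass (adjusted p 0.226). TNPO3, which imports SR splicing factors, IPO8 and IPO11 had log2 fold changes between 0.06 and 0.13 and did not pass.

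Importin alpha proteins link cargo with a classical localisation signal to KPNB1. Of 6 tested, 1 rose and 0 fell, 16.7% called against 22.9% of all genes tested. KPNA6 had 224, 237 and 205 CPM in MUT and 187 and 164 CPM in WT, with no overlap between the groups. It was 1.27-fold higher (log2 fold change 0.34, edgeR adjusted p 0.0159), but its adjusted p was 0.205 without WT replicate 2, 0.0682 without MUT replicate 1 and 0.0568 without MUT replicate 2. Its close relative KPNA1 had a log2 fold change of 0.27 and did not pass (adjusted p 0.0875, and 0.0257 without MUT replicate 3), and KPNA5 had one of -0.11. KPNA2, the adaptor typical of dividing cells, had 419.9, 435 and 387 CPM in MUT and 362 and 409 CPM in WT. The groups overlapped, and its log2 fold change of 0.10 (95% interval -0.10 to 0.30) did not pass (adjusted p 0.484). The paralogs KPNA3 and KPNA4 had -0.08 and 0.13.

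Exportins bind cargo with Ran-GTP in the nucleus and release it in the cytoplasm. Of 8 export receptors 2 rose (25%), 1 fell (12.5%) and 5 did not pass. Among all genes tested 10.0% rose and 12.9% fell. XPO1 (CRM1), the receptor for leucine-rich export signals that also takes both ribosomal subunits out of the nucleus, had 375, 423 and 402 CPM in MUT and 465 and 539 CPM in WT. Every MUT library lay below both WT libraries. It was 1.26-fold lower (log2 fold change -0.33, SE 0.0975, edgeR adjusted p 0.0164). The call ended without WT replicate 2 (adjusted p 0.208) and without MUT replicate 1 (0.12). XPO1 spans chromosome 2, 61477849 to 61538612.

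The exportins that rose were XPO6 and XPO5. XPO6, which exports actin with profilin, had 237, 254 and 239.9 CPM in MUT and 176 and 202 CPM in WT. XPO5, which exports precursor microRNAs, had 131, 117 and 134 CPM in MUT and 95.9 and 104 CPM in WT. Neither gene had overlapping groups. XPO6 was 1.29-fold higher (edgeR adjusted p 0.00869, but 0.104 without WT replicate 1) and XPO5 1.27-fold higher (0.0192). XPO5 lost its call without WT replicate 1 (0.135), WT replicate 2 (0.0696), MUT replicate 1 (0.0758) or MUT replicate 3 (0.0519) and with DESeq2 (0.0697). CSE1L, which returns importin alpha to the cytoplasm, had 369.6, 412 and 391 CPM in MUT and 477 and 448 CPM in WT. Its MUT libraries were all lower, but the log2 fold change of -0.24 just missed the threshold (adjusted p 0.0659). The bulk mRNA export receptor NXF1 (0.32) and its partner NXT1 (-0.13) did not pass, nor did XPO4 (0.21) or XPO7 (-0.03).

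Upstream sequences of the receptors with the lowest p in each direction are shown so that genes of one family that moved apart can be compared. They are the 250 bases before the annotated start, 5′ to 3′ on the gene's strand, from RefSeq's GRCh38.p14 table. Capitals mark motifs that were searched on both strands. The GC box was read as GGGCGG, the box of that name as CCAAT, the ETS motif as CCGGAAG, the E-box as CACGTG and the TATA box as TATAAA, and the palindromic NRF1 motif was searched too, with no match in these 4 windows.
IPO4, higher in MUT, chr14:24188817-24189066, minus strand: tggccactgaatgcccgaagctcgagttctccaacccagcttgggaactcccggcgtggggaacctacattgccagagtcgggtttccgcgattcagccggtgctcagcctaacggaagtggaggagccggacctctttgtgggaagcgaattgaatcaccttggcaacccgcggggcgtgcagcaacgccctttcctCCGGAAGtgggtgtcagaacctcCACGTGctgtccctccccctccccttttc
XPO6, higher in MUT, chr16:28211966-28212215, minus strand: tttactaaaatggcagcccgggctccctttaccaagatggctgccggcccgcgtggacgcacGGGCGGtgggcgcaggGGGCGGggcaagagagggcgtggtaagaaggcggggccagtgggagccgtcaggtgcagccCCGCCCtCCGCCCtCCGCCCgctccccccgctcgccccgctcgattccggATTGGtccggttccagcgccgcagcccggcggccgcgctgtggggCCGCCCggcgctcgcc
IPO7, lower in MUT, chr11:9384402-9384651, plus strand: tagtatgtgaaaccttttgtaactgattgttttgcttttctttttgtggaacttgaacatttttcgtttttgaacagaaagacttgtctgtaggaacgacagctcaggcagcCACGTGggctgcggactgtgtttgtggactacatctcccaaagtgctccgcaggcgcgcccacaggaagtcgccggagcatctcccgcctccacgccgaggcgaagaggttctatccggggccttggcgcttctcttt
IPO5, lower in MUT, chr13:97953425-97953674, plus strand: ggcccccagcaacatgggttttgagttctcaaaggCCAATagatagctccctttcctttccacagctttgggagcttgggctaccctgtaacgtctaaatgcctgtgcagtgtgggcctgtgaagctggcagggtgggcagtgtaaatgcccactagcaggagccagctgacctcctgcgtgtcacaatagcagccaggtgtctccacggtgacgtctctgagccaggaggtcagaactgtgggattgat
IPO4 holds 1 ETS motif and 1 E-box, XPO6 holds 6 GC boxes and 1 CCAAT box, IPO7 holds 1 E-box and IPO5 holds 1 CCAAT box. Upstream windows were given for 54 of the 61 genes, and ETS motifs were in 27.8% of them, against 13.2% of 13622 windows over the table. NRF1 motifs were in 7.41% (4 of the 54), against 1.62%. E-boxes were in 12.96%, against 8.39%, and CCAAT boxes in 42.6%, against 34.7%. GC boxes were in 53.7%, against 61.4%, and TATA boxes in 5.56%, against 7.33%. The median GC content of the window was 66.2% for the 10 genes that rose and 57.8% for the 6 that fell, and 63.6% over the table. The ranges overlapped, from 47.2% (KPNA6) to 76.4% (RANGAP1) for the rises and 50% (NUP35) to 65.2% (XPO1) for the falls. The 13622 windows over the table include genes with too few counts to be tested, since only 11991 genes were tested. The differences in these shares were not tested. These matches are descriptions of letters, not of bound sites.

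In the Ran cycle 1 of 5 genes rose and 0 fell, 20% called against 22.9% of all genes tested. RANGAP1, which makes Ran hydrolyse GTP, had 182, 179.6 and 156 CPM in MUT and 121 and 154 CPM in WT. The lowest MUT library lay only just above the higher WT library. It was 1.24-fold higher (log2 fold change 0.31, edgeR adjusted p 0.0404). The call ended without WT replicate 1 (adjusted p 0.404), MUT replicate 1 (0.153) or MUT replicate 2 (0.0776) and with DESeq2 (0.102). RAN had 646, 654 and 608 CPM in MUT and 729 and 732 CPM in WT, so every MUT library was lower. Its log2 fold change of -0.20 (95% interval -0.39 to -0.01) did not pass (adjusted p 0.128), and it passed in 1 of 15 alternative fits, that with the trend of gene span removed (0.0351). RANBP1, the Ran-binding partner of RANGAP1, had -0.23 (adjusted p 0.0805), and it too passed only with the trend of gene span removed (0.026). The exchange factor RCC1 and the XPO1 cofactor RANBP3 had 0.13 and 0.21 and did not pass.

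Of 29 nucleoporins tested 2 rose and 3 fell (17.2% called), against 7 rises and 3 falls among the 25 importins, exportins and adaptors (40%). Among all genes tested 22.9% were called. The difference between these counts was not tested. The scaffold and membrane parts held both rises. POM121, which anchors the pore in the membrane, had 198, 186 and 196 CPM in MUT and 156 and 146 CPM in WT, 1.28-fold higher (edgeR adjusted p 0.00948). NUP188, an inner ring scaffold protein, had 225, 241 and 219 CPM in MUT and 178 and 193 CPM in WT, 1.23-fold higher (adjusted p 0.0268). In both genes all MUT libraries lay above both WT libraries. POM121 lost its call without WT replicate 2 (0.105) and without MUT replicate 1 (0.0515). NUP188 lost its call without WT replicate 1 (0.155), WT replicate 2 (0.0571), MUT replicate 1 (0.0764) or MUT replicate 2 (0.0936) and with DESeq2 (0.0593). Of the other membrane nucleoporins, NDC1 had a log2 fold change of -0.29 (adjusted p 0.0545, and 0.0325 without MUT replicate 3) and NUP210 one of 0.23, and neither passed with all libraries.

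The 3 nucleoporins that fell each had a high value in WT replicate 2. NUP35, an inner ring linker that contacts the membrane, had 47.1, 51.3 and 46.2 CPM in MUT and 52.9 and 92.5 CPM in WT. NUP54, of the central channel's FG trimer with NUP58 and NUP62, had 98.6, 101 and 88.8 CPM in MUT and 109 and 148 CPM in WT. TPR, the main protein of the nuclear basket, had 183, 230.1 and 186 CPM in MUT and 213 and 335 CPM in WT. WT replicate 1 lay just above the highest MUT library for NUP35 and NUP54, and below MUT replicate 2 for TPR. Their log2 fold changes were -0.63 (SE 0.159, edgeR adjusted p 0.0058), -0.44 (SE 0.116, 0.00795) and -0.47 (SE 0.130, 0.011). Without WT replicate 2 they were -0.13, -0.18 and -0.09, with adjusted p 0.692, 0.439 and 0.736. TPR also lost its call without MUT replicate 1 (0.092), with DESeq2 (0.271) and with robust dispersion (0.109).

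The remaining inner ring proteins, NUP93, NUP155 and NUP205, had log2 fold changes from -0.18 to 0.10 and did not pass. NUP155 had 240.5, 301 and 248 CPM in MUT and 277 and 316 CPM in WT, and the groups overlapped. The outer ring (Y complex) has copies that coat the pore on both faces. Where 22.9% of all genes tested were called, it had 0 calls in 7 genes. An unadjusted p under 0.05 was found for 1 of the 7, and for 4295 of all 11991 genes tested. Of the 7 outer ring genes 6 had log2 fold changes below 0 with TMM scaling (5 with upper-quartile scaling or library size only), and the median was -0.15. Its lowest p belonged to SEH1L, shared with a nutrient-sensing complex, which had 205, 193 and 208 CPM in MUT and 247 and 231 CPM in WT. The MUT libraries of SEH1L were all lower, but the log2 fold change of -0.24 (95% interval -0.43 to -0.05) did not pass (adjusted p 0.0622).

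The other proteins of the channel trimer did not pass. NUP58 had 265, 276 and 283 CPM in MUT and 338 and 298 CPM in WT (log2 fold change -0.21, adjusted p 0.113), and NUP62 had one of 0.26 (adjusted p 0.0694, and 0.039 without WT replicate 1). NUP98 and NUP62CL had 0.13 and -0.20. On the cytoplasmic side 0 of 6 genes passed, against 22.9% of all genes tested. An unadjusted p under 0.05 was found for 2 of the 6, and for 4295 of all 11991 genes tested. NUP42, an FG protein that binds the mRNA export factor GLE1, had 32.8, 32.4 and 32.6 CPM in MUT and 38.5 and 43.8 CPM in WT. Its log2 fold change of -0.35 did not pass (adjusted p 0.101). RANBP2 (NUP358), the main protein of the cytoplasmic filaments, had 204, 219.9 and 183 CPM in MUT and 198 and 241 CPM in WT, with overlapping groups. AAAS, RAE1, NUP88 and NUP214 ran from -0.09 to 0.29. In the basket NUP50 had 293, 313 and 334 CPM in MUT and 312 and 301 CPM in WT (log2 fold change 0.03), and NUP153 had -0.06.

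**Figure D2:**
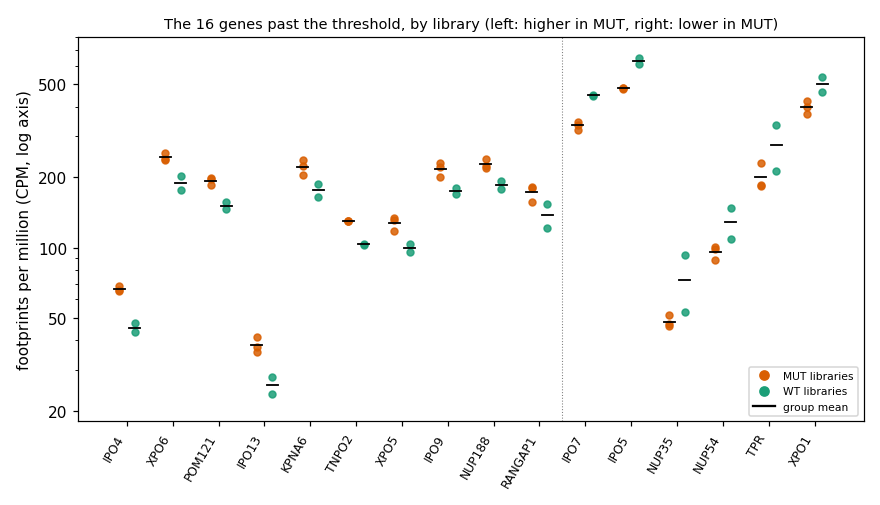
Footprint CPM (log axis) in every library for the 16 genes past the threshold, with MUT libraries on the left and WT libraries on the right of each pair and black lines at group means. The groups are separate for every gene except TPR, and in NUP35, NUP54 and TPR 1 WT library stands above all others.

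The calls depended on single libraries to different degrees. Of the 10 rises, 4 remained without WT replicate 1, 3 without WT replicate 2, 3 without MUT replicate 1, 6 without MUT replicate 2 and 9 without MUT replicate 3. Of the 6 falls, 6 remained without WT replicate 1, 2 without WT replicate 2, 4 without MUT replicate 1 and 6 each without MUT replicate 2 or MUT replicate 3. IPO4, IPO5 and IPO7 kept their calls in each of these fits. DESeq2 kept 4 rises and 5 falls.

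**Figure D3:**
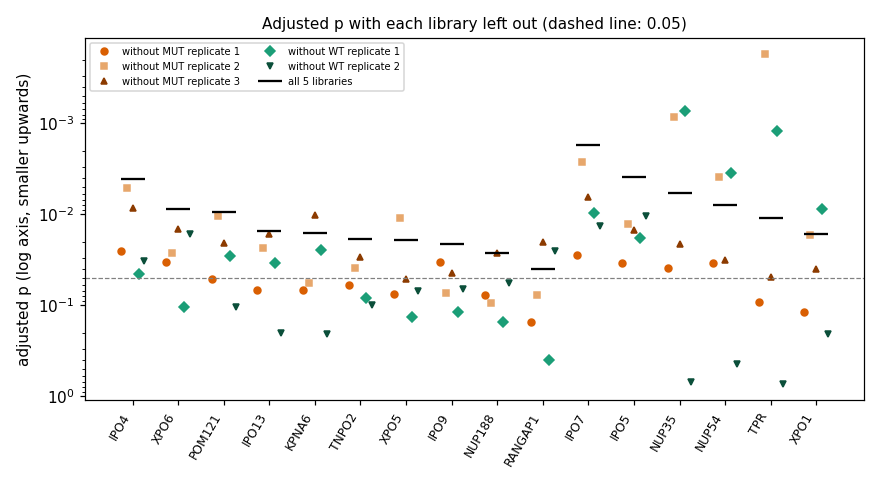
Adjusted p from edgeR (log axis, smaller upwards) for the 16 genes past the threshold with all 5 libraries (black bars) and with each library left out in turn (symbols). Only IPO4, IPO7 and IPO5 have all symbols above the dashed line at 0.05, while NUP35, NUP54 and TPR lie far below it without WT replicate 2.

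Added up, the 61 genes summed to 10784, 11352 and 10785 CPM in MUT and 10944 and 11497 CPM in WT, and the groups overlapped. Importin alpha genes summed to 1169 ± 45.7 CPM in MUT (SD, n = 3) and 1073 ± 8.04 CPM in WT (SD, n = 2). The outer ring summed to 839 ± 22.5 CPM in MUT and 914 ± 38.7 CPM in WT. For both of these roles the MUT and WT libraries did not overlap. Nor did they for the Ran cycle, with 1340, 1333 and 1279 CPM in MUT and 1362 and 1377 CPM in WT. The membrane nucleoporins were also separate, with 310, 314 and 325 CPM in MUT and 295 and 287 CPM in WT. So was the sum over all genes, 978517 to 989034 CPM in MUT and 1046390 and 1022770 CPM in WT. That total is largely set by the TMM factors, 1.014 to 1.026 in MUT and 0.959 and 0.980 in WT. As a share of raw counts the outer ring overlapped, with 0.0840%, 0.0874% and 0.0847% in MUT and 0.0848% and 0.0921% in WT. The raw shares of the Ran cycle overlapped too, with 0.1369%, 0.1348% and 0.1304% in MUT and 0.1302% and 0.1346% in WT. Those of the importin alpha genes and the membrane nucleoporins stayed separate. Import receptors summed to 2493 ± 73.0 CPM in MUT and 2571 ± 56.0 CPM in WT, and the groups overlapped. The sums of the remaining roles overlapped too.

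Related genes outside the symbol rule were read from 3 lists. Of 12 other nuclear pore and transport genes tested, 3 fell and 0 rose, with a median log2 fold change of -0.06, where 12.9% of all genes tested fell and 10.0% rose. The 9 that did not pass included RANGRF, a Ran-binding protein, at -0.03 (adjusted p 0.907). NUTF2, which carries Ran-GDP back into the nucleus, had 114, 113 and 113 CPM in MUT and 159 and 156 CPM in WT, 1.39-fold lower (edgeR adjusted p 0.000968). NXT2, a copy of the NXF1 partner NXT1, and HIKESHI, the import carrier of heat shock protein HSP70, had log2 fold changes of -0.56 and -0.52 (adjusted p 0.00561 and 0.00963). NXT2 and HIKESHI lost their calls without WT replicate 1 (0.0821 and 0.113), whereas NUTF2 passed in all 15 alternative fits.

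Of 22 mRNA export adaptors tested 4 rose and 4 fell (18.2% each), with a median of -0.07. Among all genes tested 10.0% rose and 12.9% fell. ENY2, a subunit of the TREX-2 and SAGA complexes, had 118, 113 and 112 CPM in MUT and 154 and 162 CPM in WT (1.39-fold lower, adjusted p 0.00109, past the threshold in all 15 alternatives). THOC7, of the THO complex, was 1.40-fold lower (0.00159, but 0.081 without WT replicate 2). MCM3AP, the TREX-2 scaffold, and POLDIP3, an adaptor that binds mRNA, were 1.32-fold and 1.31-fold higher, with adjusted p 0.0124 each. MCM3AP lost its call without WT replicate 1 (0.0754), WT replicate 2 (0.0827) or MUT replicate 1 (0.0669) and with DESeq2 (0.0515). POLDIP3 lost its call without WT replicate 1 (0.115) and MUT replicate 1 (0.0748).

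Of 18 genes of the lamina and inner nuclear membrane 1 rose (5.56%) and 5 fell (27.8%), with a median of -0.04. Among all genes tested 10.0% rose and 12.9% fell. LMNA, which encodes lamins A and C, had 299, 342 and 283 CPM in MUT and 209.8 and 201 CPM in WT, 1.5-fold higher (adjusted p 0.000243). TMPO, which encodes the lamina-associated LAP2 proteins, had 329.6, 338 and 319 CPM in MUT and 417 and 456 CPM in WT, 1.33-fold lower (0.00253). LMNA and TMPO passed in all 15 alternative fits. SYNE2, which ties the envelope to the cytoskeleton, was 1.45-fold lower (0.00474, but 0.289 without WT replicate 2), and the DNA-bridging protein BANF1 was 1.32-fold lower (0.00685, but 0.107 without WT replicate 1). LBR, the lamin B receptor, had a log2 fold change of -0.45 (adjusted p 0.0087, but 0.0696 without WT replicate 1 and 0.0565 without WT replicate 2). LMNB1, which encodes lamin B1, had a log2 fold change of -0.30 (edgeR adjusted p 0.0229), and -0.22 without WT replicate 2. LMNB1 lost its call with upper-quartile scaling (0.0517), library size only (0.0787) and DESeq2 (0.0505). The call also ended without WT replicate 2, without MUT replicate 1 (0.0813) or without MUT replicate 3 (0.0616). Of the 5 falls, 3 were called without WT replicate 1 and 2 without WT replicate 2.

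**Figure D4:**
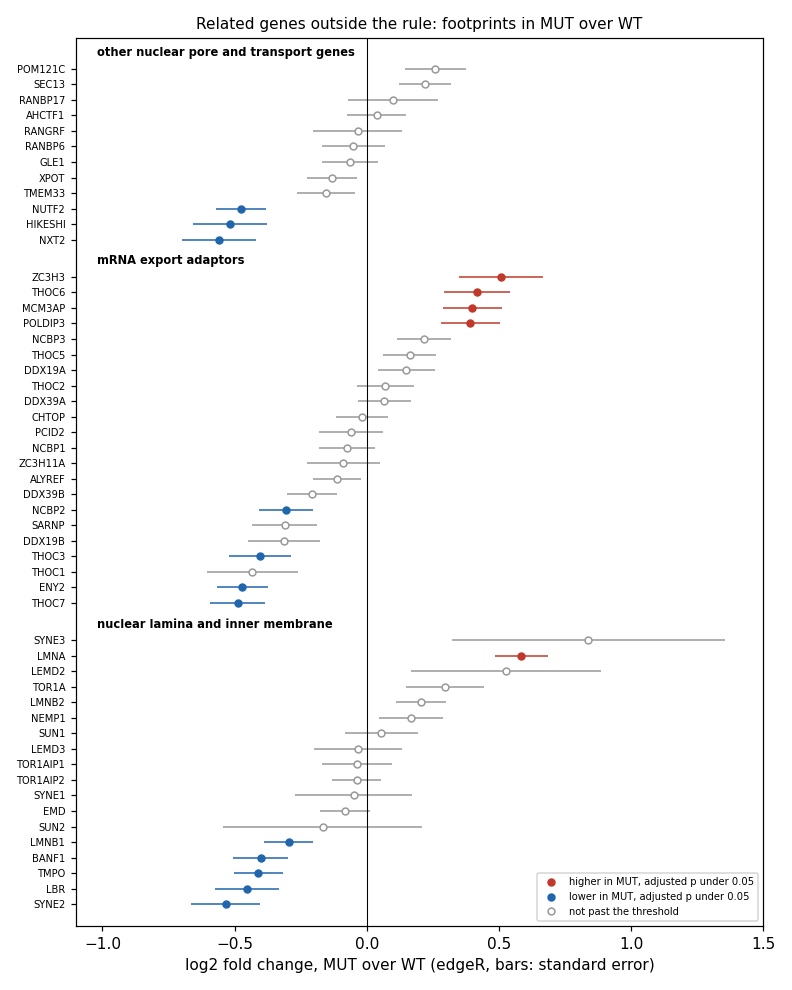
Log2 fold change of footprints, MUT over WT, with standard errors for the 52 tested genes of the related lists, grouped by list. LMNA at 0.59 is the lamina and membrane gene past the threshold above 0, and the other nuclear pore and transport genes past the threshold, NUTF2, NXT2 and HIKESHI, all lie below 0.

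Some counts could include reads of copies or neighbours, because the sources used here do not say how reads with several matches were handled or whether strand was used. The RGPD genes, copies of RANBP2, had 532, 756 and 674 counts over 7 rows in MUT and 370 and 636 in WT, against 640, 835 and 715 counts of RANBP2 in MUT and 396 and 738 in WT. POM121C, the near copy of POM121, had a log2 fold change of 0.26 and did not pass (adjusted p 0.107). RefSeq names pseudogenes after 15 of the 61 genes, with 9 for RAN, 2 each for IPO7 and NUP35 and 1 for IPO5. Of the genes that rose, 4 overlap another coding gene of the table (IPO4 with REC8, XPO5 with POLR1C, NUP188 with SH3GLB2 and RANGAP1 with ZC3H7B). Of those that fell, TPR overlaps PRG4. The part of these copies and neighbours in the values was not tested.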

How the data were processed

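The deposited table holds raw counts of ribosome footprints per gene, whole numbers that the authors did not normalize, for 5 libraries matched to samples by the codes in its header. Per the labels' protocols, extracts were digested with MNase and fragments of 25 to 35 nucleotides were taken from the 80S fraction. The submitters' processing notes name hg38, STAR 2.5.2b, DESeq2 1.42.0, cutadapt 4.6 and FastQC 0.12.1. The sources used here name no counting tool or annotation and do not say which part of a gene was counted. The filter was filterByExpr with a minimum count of 10 and a minimum total of 15, and scaling was by TMM. MUT was compared with WT by the quasi-likelihood F test of edgeR 4.0.16 (limma 3.58.1, R 4.3.3) with 3 residual degrees of freedom, and p-values were adjusted over all genes by Benjamini-Hochberg. Standard errors come from the F statistic, and 95% intervals use them with the test's total degrees of freedom. CPM are per TMM-scaled library; 1 count was 0.257 to 0.499 CPM, and limits from a count of 0 use 3 counts per library and cover counting error only.

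Named genes are RAN, KPNB1, XPO1, all genes of the rule past the threshold, the gene of highest CPM and of lowest p in each role, up to 4 called genes of each related list, and EIF6. Other genes named were chosen after their values were seen. Members and lists were chosen with earlier results of these data known. Alternatives were RLE, upper-quartile and no scaling beyond library size, DESeq2, limma-voom, robust dispersion, no count filter, a strict one (mean CPM of 10, and 30 counts in 2 libraries), the replicate number as a block, each library left out and, added after seeing the data, the trend of gene span removed. Gene symbols and bounds come from RefSeq GRCh38.p14, which listed all 61 genes.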

Additional observations from a re-analysis of the deposited data

How the results depend on the processing

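Of 375 values of the 25 named genes of the rule under 15 alternatives, 331 kept both direction and side of the threshold. NUP50, never called, changed sign with the replicate block and without MUT replicate 3 (log2 fold change -0.0142 and -0.0140, highest 0.0782 with a library left out), and RANBP2, also never called, had 0.0388 without WT replicate 2 and -0.262 without WT replicate 1. Of the 10 rises and 6 falls, DESeq2 called 4 and 5, and leaving out a library gave 3 to 10 rises and 2 to 7 falls (3 and 2 without WT replicate 2, 5 rises without WT replicate 1, 3 without MUT replicate 1 and 6 without MUT replicate 2). Library size only moved the median log2 fold change to 0.11 (all genes tested, 0.07) and the difference in summed CPM, MUT minus WT, to 317, against -247 in the fit reported. With upper-quartile scaling that difference was 100.2, and with a library left out it ran from -583 to 80.1, and the median from -0.01 to 0.08. The causes were not tested. The replicate block called 13 rises and 8 falls with a median of -0.0020, and 5 genes passed that did not without it: KPNA1 (adjusted p 0.00319), NDC1 (0.00525), NUP62 (0.00676), SEH1L (0.017) and AAAS (0.0397). The block called 1529 rises and 1909 falls over all genes tested. MUT replicate 3 has no WT library of its number, so with the block it added nothing to the group difference. The block also left fewer residual degrees of freedom than the 3 of the fit reported. Deviations of same-numbered libraries correlated at 0.08 and 0.15 over 2 numbers. With 2 WT libraries, the deviations of one mirror those of the other, so each value returned with its sign changed. These correlations therefore cannot tell whether the numbers pair the libraries, and the fit reported used the group alone. Upper-quartile scaling, library size only, limma-voom, robust dispersion, the strict filter and the gene span trend gave 10 to 15 rises and 5 to 8 falls, and RLE scaling and no count filter gave 10 and 6. Over all genes tested, 1203 rises and 1544 falls became 610 and 953 with DESeq2 and 509 and 732 without WT replicate 2. Across the alternatives import receptor rises ran from 1 to 4 (falls were 2 in each), export receptor rises from 0 to 4, mRNA export adaptor rises from 0 to 5, falls of the other nuclear pore and transport genes from 1 to 4, and falls of the lamina and inner membrane genes from 2 to 5. Removal of a coding length trend was not run, for lack of coding lengths. Depth limits low values: 1 count was worth 0.499 CPM in the smallest library, WT replicate 1.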
